A study of Mus musculus with 4 samples.

Results

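Binding of p63 and histone acetylation were mapped by chromatin immunoprecipitation and sequencing (ChIP-seq) in primary salivary gland epithelial progenitor cells of adult mice aged 12 weeks, all with wild-type p63. The 4 libraries are single samples of 4 kinds: a ChIP of p63 with the monoclonal antibody 4A4, a ChIP of H3K27ac, and an input without antibody for each of them. The deposited data are 2 peak lists on the mm9 mouse genome, 4130 p63 peaks and 183757 H3K27ac peaks, each from 1 ChIP library set against its input. They hold positions and no read numbers, so depth is unknown, no value has a replicate, and no difference below has a test. Whether a library was made from 1 mouse or several is not stated in the labels.

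The regions described here are p63 peaks that stand beside H3K27ac on 1 side. Each shares no base with an H3K27ac peak, has the edge of an H3K27ac peak less than 1000 bases from its own edge on exactly 1 side, and has none so close on the other side. The rule was met by 914 of the 4130 p63 peaks (22.1%, Wilson 95% interval 20.9 to 23.4%). The nearby H3K27ac peak is called the flank, its side the flanked side, and the other side the open side. These sites were chosen by the positions of the peaks in both lists, so the number, the limit of 1000 bases on the distance to the flank and the empty first 1000 bases of the open side follow from the rule. Flanks and their runs are counted once per p63 peak unless stated otherwise. All intervals given for shares are Wilson 95% intervals, those for medians are order-statistic 95% intervals, and both treat peaks as independent and include only counting error.

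p63 belongs to the p53 family of transcription factors and is needed to form and maintain stratified and glandular epithelia, where it marks basal and progenitor cells. H3K27ac is the acetylation of lysine 27 of histone H3, placed by the acetyltransferases p300 and CBP at active promoters and enhancers. A bound transcription factor usually sits in a stretch cleared of nucleosomes, so the acetylated histones of an active enhancer lie beside the bound site, on either or both sides. No genome of the mm9 build was used, so these regions are described by position, and no gene or sequence is assigned to them.

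The distance between the edges had a median of 243 bases (interval 223 to 261, quartiles 89.5 and 492, n = 914). This value follows the limit of the rule: it was 170 bases with a limit of 500 bases and 368 bases with a limit of 2000 bases. It was under 100 bases for 241 p63 peaks (26.4%), from 100 to under 250 for 228, from 250 to under 500 for 226 and from 500 to under 1000 for 219. The distances were thus crowded toward p63: the nearest 100 bases held 241 flanks and the last 100 bases before the limit held 39. From centre to centre, p63 and flank were a median of 474 bases apart (interval 458 to 498). At 4 sites the peaks touched without sharing a base, and an edge moved by 100 bases would turn the 241 closest sites into overlaps.

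Among the 471 p63 peaks with H3K27ac within 1000 bases on both sides, the nearer flank stood at a median of 85 bases (interval 72 to 98) and the farther flank at 257 bases (interval 233 to 292). The single flank, at 243 bases, was thus about as far away as the farther flank of those peaks, with overlapping intervals. The nearer flank is the closer of a pair by definition and the farther flank the more distant. Neither the shorter distance of the nearer flank nor the likeness to the farther flank is therefore a finding. In the nearest 100 bases lay 26.4% of single flanks, 55.0% of nearer flanks and 14.4% of farther flanks.

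**Figure D1:**
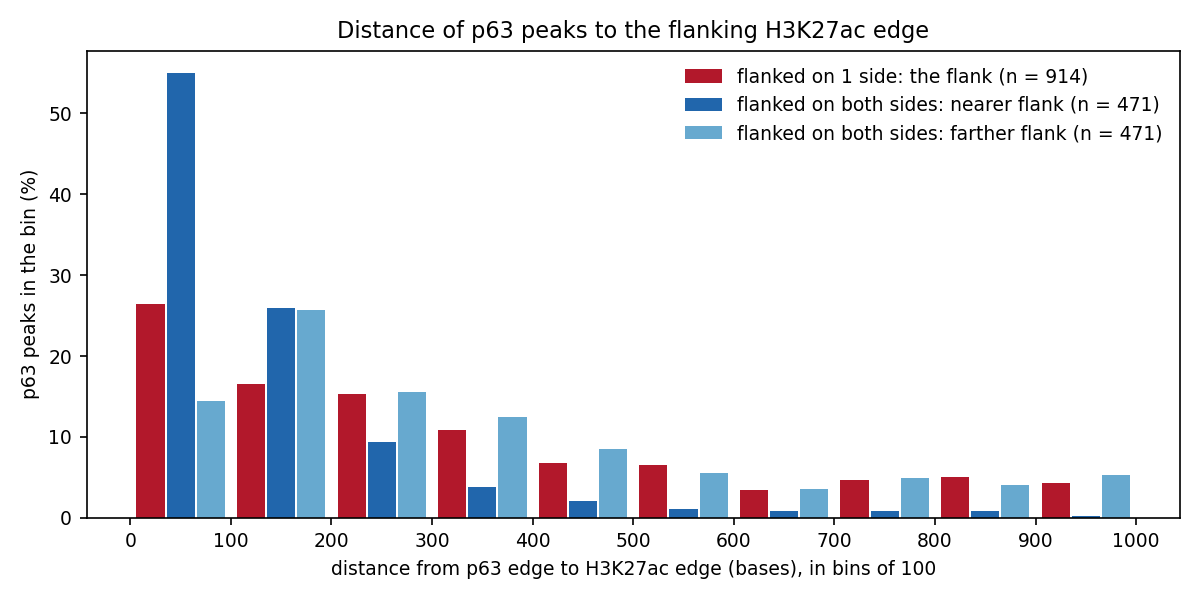
Share of p63 peaks (y axis, percent) by the distance from the p63 edge to the H3K27ac edge (x axis, bases, bins of 100). Bars stand for the single flank of 914 p63 peaks and for the nearer and farther flank of 471 p63 peaks flanked on both sides; the single flanks are most frequent in the first bin, at 26.4%.

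Neither side along the chromosome was favoured. The flank was on the side of lower coordinates at 466 of the 914 p63 peaks, or 51.0% (interval 47.7 to 54.2%), which includes equal shares. The side was not part of the rule. Without gene positions, the side could not be related to the direction of transcription.

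Within 1 kb the sites were lopsided by the rule, and farther out the sides became alike. On the flanked side, H3K27ac peaks covered 27.9% of the first 250 bases from the p63 edge, 38.6% of the next 250 and 23.1% from 500 to 1000 bases. Coverage was highest from 200 to 300 bases, at 42.0%. From 1000 to 2000 bases it was 9.66% on the flanked side and 3.30% on the open side, a band in which peaks that start before the limit can still reach on the flanked side only. From 2 to 5 kb it was 5.36% on the flanked side and 4.53% on the open side, and from 5 to 10 kb it was 4.56% on the flanked side and 4.47% on the open side. From 10 to 50 kb it was 4.20% on the flanked side and 4.28% on the open side, both above the 1.87% of all the 2568 Mb that the lists span.

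Counted per site, the band from 2 to 10 kb held more H3K27ac on the flanked side about as often as on the open side. There was more on the flanked side at 379 p63 peaks, more on the open side at 364 and the same amount at 171, of which 163 had none on either side. Of the 743 unequal sites, 51.0% (interval 47.4 to 54.6%) had more on the flanked side. The share was 55.0% (interval 51.6 to 58.4%) with a limit of 2000 bases. At that limit, a flank that starts before 2 kb can reach into the band on the flanked side only. Part of that excess can thus follow from the rule, and its part was not tested. When the H3K27ac list was reduced to its first 91878 rows, the share was 54.5% (interval 50.3 to 58.7%). The acetylated surroundings were thinner than those of p63 peaks flanked on both sides, where the same band was 8.86% covered on the nearer side and 9.16% on the farther side. At single-flank sites it was 4.86% covered on the flanked side and 4.49% on the open side. The 2 classes were sorted by H3K27ac closer to p63, and the part of that sorting in this difference was not tested.

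**Figure D2:**
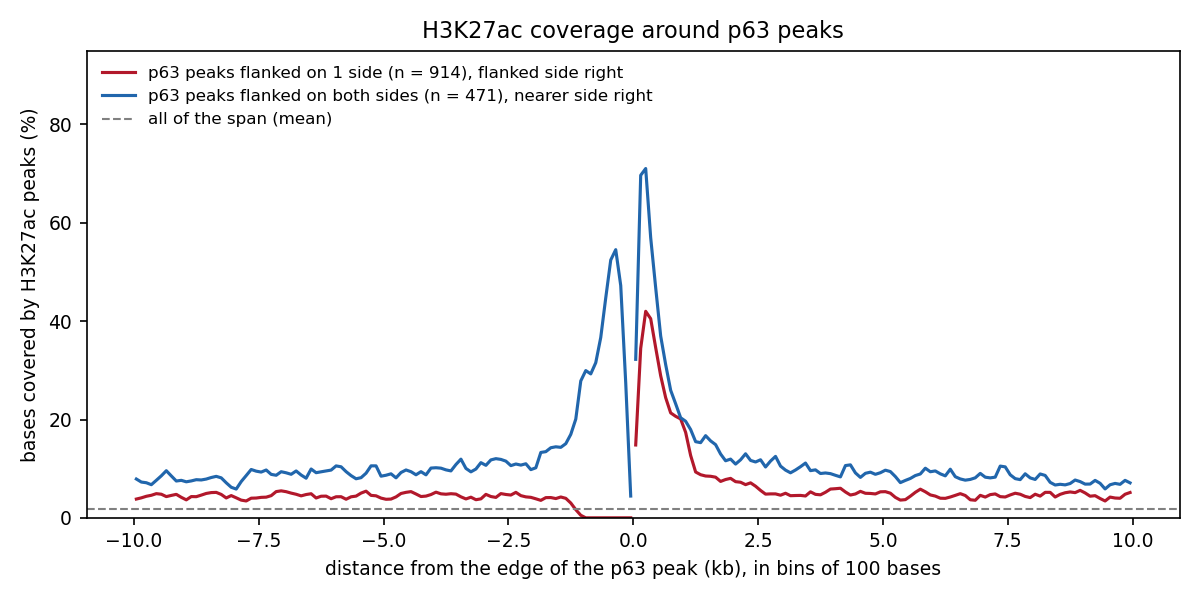
H3K27ac coverage (y axis, percent of bases) against distance from the p63 edge (x axis, kb, bins of 100 bases), for 914 p63 peaks with a flank on 1 side (flanked side right, open side left) and 471 with flanks on both sides (nearer side right). The single-flank curve peaks at 42.0% and is 0 within 1 kb on the open side by the rule. It is still higher on the flanked side from 2000 to 2100 bases (7.36% against 4.17%). From 2600 to 2700 bases the sides are at similar levels (4.82% and 4.93%). The dashed line is the 1.87% of the whole span.

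The open side was not empty of H3K27ac for long. Its nearest H3K27ac peak was a median of 6359.5 bases away (interval 5753 to 6849, quartiles 2928 and 13601). It was from 1000 to under 2000 bases away at 139 sites (15.2%), from 2000 to under 5000 at 253 (27.7%), from 5000 to under 10000 at 199 (21.8%), from 10000 to under 50000 at 295 (32.3%) and 50000 or more at 28 (3.06%). Around each site, a window that reached 10 kb to either side of the p63 peak held a median of 4 H3K27ac peaks (quartiles 2 and 5), against 7 (quartiles 4 and 10) at p63 peaks flanked on both sides, 7 (quartiles 4 and 10) at those overlapping H3K27ac and 2 (quartiles 1 and 3) at those with the nearest H3K27ac at 1 to 10 kb. The window includes the first 1000 bases on either side, by which the classes were sorted. It therefore holds at least 1 peak at single-flank sites and at least 2 at those flanked on both sides, and part of this order follows from the rule. At 116 sites (12.7%, interval 10.7 to 15.0%) the flank was the single H3K27ac peak of that window, and at 2 sites it was the single H3K27ac peak within 50 kb. At the other end, 43 sites (4.70%) had 10 or more H3K27ac peaks in the window.

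The flanks were somewhat wider than H3K27ac peaks in general. Their median width was 212 bases (interval 206 to 220, quartiles 168 and 297), against 191 bases (quartiles 155 and 260) for all H3K27ac peaks. The nearest H3K27ac peak on the open side of the same sites had a median width of 189 bases (interval 184 to 195), and the interval did not meet that of the flanks. Site by site, the flank was the wider of the pair at 509 sites, the narrower at 376 and as wide at 29, so that it was wider in 57.5% (interval 54.2 to 60.7%) of the 885 unequal pairs. By the rule the flank is the closer of the pair, and a wide peak reaches closer to p63 than a narrow peak with the same centre. The part of this in these differences was not tested. The nearer flank of p63 peaks flanked on both sides was wider still, with a median of 268 bases (interval 245 to 283), and the H3K27ac peak nearest to p63 peaks at 1 to 10 kb had a median of 188 bases (interval 183 to 192).

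Narrow and very wide H3K27ac peaks were both scarcer among the flanks than in the list. The smallest width of the list, 150 bases, was found at 112 flanks (12.3%, interval 10.3 to 14.5%), against 21.7% of all H3K27ac peaks. A width of 1000 bases or more was found at 7 flanks (0.766%, interval 0.371 to 1.57%), against 1.91% of all H3K27ac peaks. The rule leaves out p63 peaks that overlap H3K27ac, and a wide H3K27ac peak shares a base with p63 more easily. The part of this in the difference was not tested. Flanks closer to p63 were wider: the median was 250 bases (interval 226 to 270) at distances under 100 bases, 216 (interval 207 to 235) from 100 to under 250, 200 (interval 190 to 212) from 250 to under 500 and 195 (interval 186 to 208) from 500 to under 1000. A wide H3K27ac peak also reaches closer to a p63 peak than a narrow peak with the same centre, and its part in this order was not tested.

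**Figure D3:**
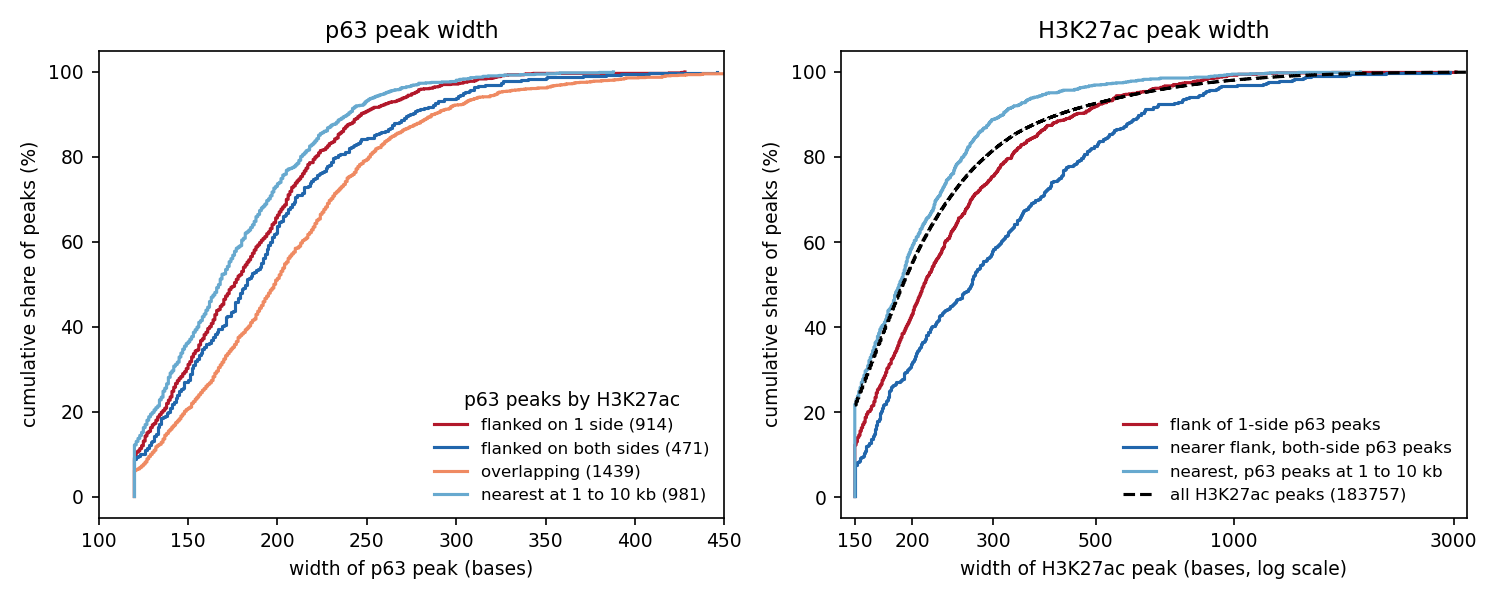
Cumulative share of peaks (y axes, percent) by width in bases, for p63 peaks on the left and for the H3K27ac peaks next to them on the right (log scale). On the left, the 914 p63 peaks with a single flank have a median of 176 bases and lie between those at 1 to 10 kb (168) and those overlapping H3K27ac (198); on the right, the single flanks (median 212) lie between all H3K27ac peaks (191) and the nearer flanks of p63 peaks flanked on both sides (268).

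Most flanks stood alone. Taking H3K27ac peaks less than 1000 bases apart as a run, 661 sites (72.3%, interval 69.3 to 75.1%) had a flank with no other peak in its run. At the remaining 253 sites (27.7%, interval 24.9 to 30.7%) the flank was the last peak of a run of 2 or more, with p63 just outside the end of the run. The rule allows no second peak on the p63 side, so the share was read on the far side: all sides of all H3K27ac peaks had a next peak within 1000 bases in 24.3% of cases, and the far side of the nearer flank of p63 peaks flanked on both sides in 43.7% (interval 39.3 to 48.2%). Within 5000 bases the shares were 57.4% (interval 54.2 to 60.6%) for single flanks, 72.2% (interval 68.0 to 76.0%) for these nearer flanks and 49.5% for all sides. The share for single flanks was thus nearer to that of all sides than to that of the nearer flanks. These 253 sites had 249 different runs, with a median span of 1125 bases (interval 1030 to 1221), against 1216 bases for all 24660 such runs in the list. At 128 of the 253 sites (50.6%) the flank was the widest peak of its run, and the median number of peaks in the run was 2 (quartiles 2 and 3).

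p63 peaks with a single flank were narrower than those that overlapped H3K27ac. Their median width was 176 bases (interval 171 to 181, quartiles 142 and 213), against 198 bases (interval 195 to 202) for overlapping p63 peaks. They were close to the 183 bases (interval 176 to 191) of p63 peaks flanked on both sides and the 168 bases (interval 163 to 171) of those with H3K27ac at 1 to 10 kb. A wide p63 peak shares a base with H3K27ac more easily than a narrow peak, and the part of this in the difference was not tested. The smallest width of the p63 list, 120 bases, was found in 84 of the 914 (9.19%, interval 7.48 to 11.2%) and in 8.80% of all other p63 peaks. Width varied little with the distance to the flank, from a median of 177 bases (interval 169 to 188) under 100 bases to 170 bases (interval 159 to 177) at 500 or more.

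Some of these sites had further p63 binding nearby. Another p63 peak lay within 10 kb of 108 of the 914 (11.8%, interval 9.88 to 14.1%). The share was 17.8% (interval 14.6 to 21.5%) for p63 peaks flanked on both sides, 21.9% (interval 19.8 to 24.1%) for those overlapping H3K27ac and 7.14% (interval 5.69 to 8.92%) for those with H3K27ac at 1 to 10 kb. The nearest p63 neighbour of these 108 overlapped H3K27ac in 35 cases (32.4%), had a single flank in 32 (29.6%), had H3K27ac at 1 to 10 kb in 24 (22.2%) and had flanks on both sides in 17 (15.7%). In the whole p63 list these classes made up 34.8%, 22.1%, 23.8% and 11.4% in the same order. Each of these values lay inside the interval of the neighbours' share (24.3 to 41.7%, 21.8 to 38.8%, 15.4 to 30.9% and 10.1 to 23.8%). No neighbour had its nearest H3K27ac 10 kb or more away (0 of 108, interval 0 to 3.43%), against 7.87% of the list. A p63 peak within 10 kb of a single-flank site also lies near that site's flank. The rule thus nearly shuts out that class, and the whole list is not a matched background.

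Some neighbouring p63 peaks shared a flank. The 914 p63 peaks had 908 different flanks, which are 0.494% of all H3K27ac peaks, and 6 flanks were shared by 2 of the p63 peaks each. These 12 p63 peaks were each other's nearest p63 neighbours and made up 12 of the 32 (37.5%, interval 22.9 to 54.7%) whose nearest p63 neighbour also had a single flank. At 5 of the 6, both p63 peaks stood in a row on the same side. Examples are chr2:138146679-138146869 and chr2:138147014-138147277, at 296 and 631 bases from their flank, and chr8:14869510-14869687 and chr8:14869864-14869983, at 303 and 7 bases. The other shared flank had p63 on either side: the H3K27ac peak chr5:123814499-123814790 lay 26 bases from p63 at chr5:123814272-123814472 and 5 bases from p63 at chr5:123814796-123814994. Another 7 p63 peaks had a flank that itself overlapped a different p63 peak, and at 9 a p63 peak stood within 1000 bases beyond the far side of the flank, in counts that can include the same sites.

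The sites named next were taken by rank. Nearest to their flank, with no base between the peaks, were chr17:74818411-74818662, chr12:92984558-92984686, chr14:68298036-68298157 and chr10:39679978-39680097, followed by chr4:118739958-118740189 at 1 base. Their flanks were 263, 255, 210, 242 and 159 bases wide in the same order, and the open side was clear for 6091, 9560, 23365, 37484 and 4203 bases. These sites thus had flanks from 159 to 263 bases wide and open sides of very different length. The p63 peak on chromosome 12 had another p63 peak 123 bases away, whereas the nearest p63 peak to that on chromosome 14 was 544270 bases away.

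The 5 widest p63 peaks of the class stood from 71 to 730 bases from their flanks. chr10:99947672-99948099 (428 bases wide) was 646 bases from a flank that began a run of 4 H3K27ac peaks over 1654 bases. chr1:78640851-78641276 (426 bases) was 344 bases from a lone flank of 180 bases, and chr1:167916163-167916581 (419 bases) was 730 bases from a flank of 223 bases. The next were chr6:38369815-38370157 (343 bases), at 71 bases, and chrX:137172700-137173038 (339 bases), at 584 bases from a flank of the smallest width, 150 bases. The distance was above the median of 243 bases for 4 of these 5, whereas over all 914 sites width and distance had a Spearman rho of -0.08, and the widest 5 therefore do not stand for the class.

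The 5 widest flanks lay next to p63 peaks 161 to 237 bases wide, against quartiles of 142 and 213 bases for all 914. The widest, chr6:125372641-125375675 (3035 bases), began 283 bases from the p63 peak chr6:125372180-125372357, whose open side was clear for 1415 bases. The H3K27ac peak chr5:142900874-142902501 (1628 bases) ended 4 bases from p63 at chr5:142902506-142902666, whose open side was clear for 1364 bases. Then came flanks of 1238 bases at chr16:58670043-58671280, 1179 bases at chr9:121614199-121615377 and 1118 bases at chr11:97140790-97141907, at 222, 179 and 647 bases from p63 peaks 185, 237 and 187 bases wide. The wide peaks on chromosomes 6 and 5 thus had further H3K27ac across p63, closer than 2000 bases, where the limit of 2000 bases would have counted the open side as flanked too.

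The longest run of H3K27ac peaks next to such a p63 peak held 10 peaks over 6795 bases, chr4:135124327-135131121, and ended 422 bases from the p63 peak chr4:135131544-135131663 (120 bases wide). On the open side of that p63 peak no H3K27ac followed for 22551 bases. Another p63 peak lay 2262 bases away on the flanked side, inside an H3K27ac peak of the run. Runs of 6 peaks over 4538 bases and 3 peaks over 4387 bases lay 920 and 12 bases from p63 at chr9:102676809-102677059 and chr9:107469093-107469212. The run next in span was that with the widest flank, on chromosome 6, with 3 peaks over 4307 bases, and then came 6 peaks over 4300 bases that ended 11 bases from p63 at chr5:143724947-143725159. At the last of these the open side had no called H3K27ac peak for 10026 bases, between the median of 6359.5 and the upper quartile of 13601 over all 914 sites. At chr9:102676809-102677059, chr9:107469093-107469212 and the chromosome 6 site it was clear for only 2541, 3058 and 1415 bases.

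**Figure D4:**
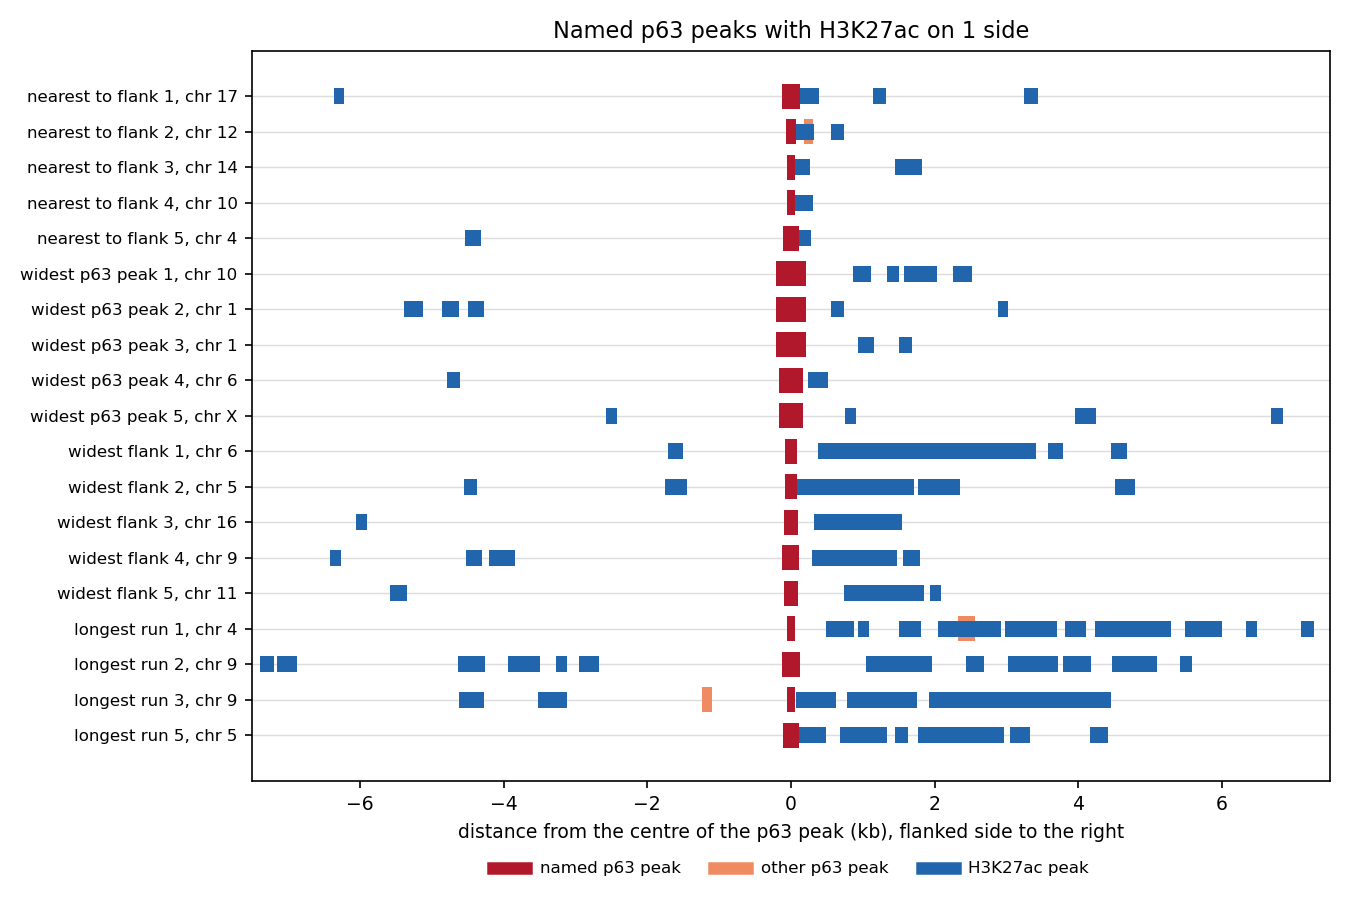
The 19 named p63 peaks at scale, each on a line with H3K27ac peaks within 7.5 kb, plotted by distance from the p63 centre (x axis, kb) and turned so that the flanked side is to the right. Short flanks next to p63 appear in the upper lines and the flanks and runs of 1118 to 6795 bases in the lower ones; the number in a label is the rank.

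Values next to the limits show how the rule divides close cases. Just inside the limit for the flank were p63 peaks with the flank 998, 996 and 995 bases away, and just outside were peaks with the nearest H3K27ac at 1000, 1005 and 1010 bases. On the open side, peaks just inside the class had the nearest H3K27ac at 1001, 1015 and 1027 bases, and peaks counted as flanked on both sides had the farther flank at 994, 993 and 986 bases.

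All chromosomes in the lists carried such sites, and their share of the p63 peaks was highest on chromosome X. Over the 19 autosomes the share was 21.9% ± 2.63 (mean and SD across autosomes), from 17.4% on chromosome 15 (34 of 195) to 28.2% on chromosome 2 (82 of 291). On chromosome X it was 33.3% (17 of 51, interval 22.0 to 47.0%), against 22.0% (interval 20.7 to 23.3%) on all autosomes together, so the interval for X was wide and met that of the autosomes. The 17 on X had a median distance to the flank of 345 bases (interval 159 to 453), against 243 bases for all 914.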

How the data were processed

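ChIP-seq peak lists of p63 and H3K27ac, each from 1 ChIP and 1 input library, were used as deposited. Per the submitters' processing notes the tools included Bowtie 1.1.1 and MACS2 2.1.0 and the build was mm9; neither settings nor thresholds are given in the sources used here. Both deposited lists have 3 columns (chromosome, start, end) and no score, fold, p-value or signal, so no peak could be weighted or compared between replicates. More reads or a looser threshold lengthens a list and moves peaks between classes, and a site without a called peak is not shown to lack acetylation. Distances are bases between facing edges, overlap needed 1 shared base, and starts are counted from 1.

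Named sites follow a rule: the 5 nearest to the flank, the 5 widest, the 5 with the widest flank, the 5 with the longest run and 3 on either side of each limit, with none on chromosome 18. The class, the lists and this rule were chosen with earlier results of these data known; shared flanks were named after their values were seen. The planned motif count was not run, since no mm9 genome was used. Class assignment was checked on simulated data. Software: matplotlib 3.10.9, scipy 1.17.1, pandas 2.3.3, numpy 2.4.6 and Python 3.11.15.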

Additional observations from a re-analysis of the deposited data

How the results depend on the processing

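No value here has a test, so a value was taken to hold when it stayed inside the 95% interval of the value above it replaces, or, for the number of sites, within 1.5 times. Of 61 alternatives, all planned, 43 held and 18 moved. The number of sites ran from 423 with the 2065 widest p63 peaks, fewer by construction, to 1119 with p63 taken as its midpoint. With limits of 500 and 2000 bases it was 787 and 1021, of which 695 and 775 were among the 914. The median distance to the flank moved to 170 and 368 bases with these limits and to 220 with H3K27ac peaks of 200 bases or more. The median p63 width moved to 216 bases among the 2065 widest p63 peaks. The median flank width moved to 221 bases with the limit of 500, 281 with H3K27ac peaks of 200 bases or more and 229 when only the first 91878 H3K27ac rows were kept. The median run span, 248.5 bases over all 914 sites, moved to 274, 316 and 267 bases in the same 3 settings, to 269 with p63 midpoints and to 234 with peaks joined under 500 bases. The share with more H3K27ac on the flanked side at 2 to 10 kb moved to 55.0% with the limit of 2000. Its interval there (51.6 to 58.4%) no longer held equal shares. At that limit, however, the flank can reach into the band on the flanked side only. With the 91878 rows the share was 54.5% (interval 50.3 to 58.7%). It was 47.8% with the flanking run left out, which takes bases from the flanked side only. The share with another p63 peak within 10 kb moved to 15.5% without H3K27ac peaks under 200 bases and to 4.73% among the 2065 widest p63 peaks, and was 7.44% within 5 kb and 35.2% within 50 kb. The share flanked on the lower-coordinate side held in all 7 alternatives. No paired analysis was possible because every group is a single sample.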

Other observations

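Membership depended on how much of the H3K27ac list was kept. With H3K27ac peaks of 200 bases or more, 550 of the 914 sites (60.2%) stayed in the class. With only rows 1 to 91878 of the H3K27ac list, 587 (64.2%) did, and in both settings the others lost their flank. Both settings drop a large part of the whole list, which has 183757 rows and a median width of 191 bases. The rows are not in genome order, and no ranking value was used. Of the 914 flanks, 560 (61.3%, interval 58.1 to 64.4%) stood in those rows, against 76.4% (interval 72.4 to 80.0%) of the nearer flanks of p63 peaks flanked on both sides and 45.2% (interval 42.1 to 48.3%) of the H3K27ac peaks nearest to p63 peaks at 1 to 10 kb.

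Across the 914 sites, Spearman's rho was -0.20 between distance to the flank and flank width, and -0.01 between p63 width and flank width. It was 0.08 between distance to the flank and distance to H3K27ac on the open side. These are descriptions over sites of the same 2 lists.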
